A study of Mus musculus with 5 samples.

Results

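Extract-rich bins without RNA polymerase II or E2F4 are 500 bp stretches of the mouse autosomes with many reads of 1 whole cell extract library. Without here means that reads of the antibody libraries for RNA polymerase II (RNA Pol II) and the transcription factor E2F4 each stayed under a fixed limit. There were 9583 such bins, which joined into 8764 regions, out of 3915043 covered bins on chromosomes 1 to 19 (0.245%). A covered bin held at least 1 distinct read of any library. The members were chosen by 3 of the 5 libraries. A bin had to hold 15 to 100 reads of whole cell extract (WCE) replicate 2, and it and both of its neighbours had to hold fewer than 5 reads of RNA Pol II and fewer than 5 of E2F4. H3K27me3 and WCE replicate 1 took no part in the choice, so only those libraries were tested here.

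All 5 libraries came from secondary mouse embryonic fibroblasts in which Klf4, Sox2 and Oct4 are under doxycycline control. As the labels describe it, pluripotent stem cells with these transgenes and a selectable Oct4 cassette had gone into BDF2 blastocysts, and the fibroblasts are from the resulting chimeras 13.5 days after mating. Descendants of the injected cells were kept by puromycin at 2 µg/ml over 48 hours, in medium with 10% serum. The labels state no doxycycline treatment of the fibroblasts. Per the labels, the groups differ only in what was precipitated: 1 library each for E2F4 (antibody SC-1082), H3K27me3 (AB6002) and RNA Pol II (8WG16), and 2 libraries of extract without antibody. The sheared fragments averaged 500 bp, and inserts of 50 to 200 nt were sequenced after 18 amplification cycles.

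Whole cell extract is the sheared chromatin that enters an immunoprecipitation, and it serves as the measure of how evenly DNA is recovered without an antibody. Its coverage is known to be uneven along a genome. H3K27me3 is the trimethyl mark that Polycomb repressive complex PRC2 places on histone H3, and in fibroblasts it is known for broad domains over silent developmental genes. E2F4 belongs to the E2F transcription factors and binds promoters of cell cycle genes with pocket proteins, and antibody 8WG16 recognises the repeats at the end of the largest RNA Pol II subunit.

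Depth differed widely. On the autosomes the first section of the lists, which holds reads with 1 placement, had 12076978 reads in the WCE replicate 2 library and 10623315 in that of H3K27me3. RNA Pol II had 3474315 reads, E2F4 had 2435787 and WCE replicate 1 had 492218. WCE replicate 1 stands apart: it had 0.107 distinct reads per covered bin against 2.87 in WCE replicate 2, and reads listed at 2 places made up 37.1% of its reads in the flanks described below, against 2.74% in WCE replicate 2. H3K27me3 and WCE replicate 2 share alignment settings with -l 36, and the other 3 libraries share settings with -l 26. That setting was taken here as the read length, which the headers do not state. Each antibody has 1 library, so every test compares libraries and not conditions, and its interval covers counting error only.

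The bins stood just past the rule's lower limit. Their median was 16 reads of WCE replicate 2, and 6367 of them (66.4%) held 15 to 17 reads. Only 279 held 25 or more, and the highest held 46, against a mean of 2.87 reads over all covered bins. No bin was left out by the upper limit alone, since all 76 bins with more than 100 extract reads had RNA Pol II or E2F4 reads past their limits. Of the 34120 bins with 15 to 100 extract reads, 28.1% were members, and the other 24537 had RNA Pol II or E2F4 reads above the limit in the bin or a neighbour. Most regions were a single bin: 8047 were 500 bp long, 636 were 1000 bp, 66 were 1500 bp, and 15 were longer, up to 3500 bp.

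H3K27me3 was higher in the members than in their flanks, and WCE replicate 1 was lower. The flanks are the covered bins 5 to 20 kb away on both sides of a region, summed over regions. The members held 8.24 H3K27me3 reads per bin and their flanks 4.0. The ratio was 2.06, with 95% limits of 2.05 to 2.08 (exact conditional binomial test, two-sided, with a p too small to be written as a number). The second extract library went the other way: WCE replicate 1 had 394 reads in the members, 0.0411 per bin against 0.0873 in the flanks, a ratio of 0.471 (95% limits 0.425 to 0.520, p = 2.72e-64 by the same exact test). The library of the same kind as the one that chose the bins was therefore not rich in them. Without the regions that hold reads listed at 2 places, its ratio was 0.382 (0.338 to 0.432). What part the shorter reads or the other features of that library have in its ratio was not tested. For the libraries used in the choice, with no test, the members held 17.3 reads per bin of WCE replicate 2 against 5.26 in the flanks, 1.25 of E2F4 against 0.796, and 1.28 of RNA Pol II against 1.68.

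The limit on RNA Pol II and E2F4 holds those values down in the members but not in the flanks. When the flanks were kept to bins that met the same limits, the members had 2.67 times the flank density of RNA Pol II and 2.55 times that of E2F4. In the same flanks H3K27me3 had a ratio of 2.15, WCE replicate 1 of 0.467 and WCE replicate 2 of 3.69. A share of 33.4% of member bins held no RNA Pol II read and 34.5% held no E2F4 read. Over all covered bins the means were 0.795 RNA Pol II and 0.504 E2F4 reads per bin, below the 1.28 and 1.25 of the members.

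The H3K27me3 ratio did not begin at the limit of 15 reads. All bins that met the RNA Pol II and E2F4 limits were classed by their reads of WCE replicate 2 and compared with their own flanks. The H3K27me3 ratio was 0.624 (95% limits 0.623 to 0.625) in bins with 1 extract read, 1.00 (0.999 to 1.00) with 3 to 4, and 1.29 (1.286 to 1.292) with 7 to 8. Just outside the limit, at 14 reads, it was 1.85 (1.83 to 1.87), and just inside, at 15 reads, 1.88 (1.86 to 1.91), with limits that overlap. Further inside it was level, at 2.06 (2.03 to 2.09) with 16 reads and 2.05 (2.03 to 2.08) with 17 to 19. It was 2.27 (2.23 to 2.32) at 20 to 24 reads, 2.44 (2.35 to 2.52) at 25 to 34, and 3.36 (2.92 to 3.85) in the 13 bins with 35 or more. H3K27me3 thus stood higher in each step named here than in the one before, except from 16 to 17 to 19 reads. Intervals were apart except there and at the limit.

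WCE replicate 1 ran against that order over the low classes. Its ratio to flanks was 0.945 (0.939 to 0.951) in bins with 1 read of WCE replicate 2, 0.638 (0.626 to 0.651) with 7 to 8 and 0.471 (0.406 to 0.544) with 14. Inside the limit it was 0.488 (0.408 to 0.581) at 15 reads and 0.565 (0.435 to 0.723) at 20 to 24. The class of 35 or more held 3 reads of WCE replicate 1, which is too few to place it on either side of its flanks (0.974, with limits of 0.198 to 2.91).

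**Figure D1:**
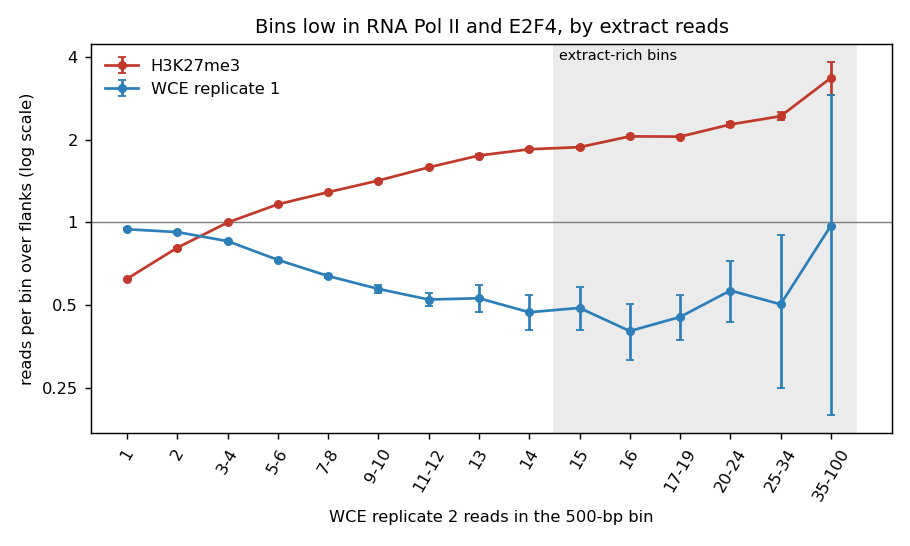
Reads per 500 bp bin over the flanks 5 to 20 kb away (y axis, log scale) against the reads of WCE replicate 2 in the bin (x axis), for bins under the RNA Pol II and E2F4 limits. Points are ratios summed over bins, bars are 95% limits, and the shaded classes are the members, where H3K27me3 runs from 1.88 to 3.36 and the points of WCE replicate 1 lie between 0.402 and 0.974.

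The limit on RNA Pol II and E2F4 reads likewise marked no step in H3K27me3. Bins were sorted by the highest RNA Pol II or E2F4 count in the bin and its neighbours. The H3K27me3 ratio was 1.92 in the 195 members where that count was 0, 2.08 where it was 2, and 2.13 in the 1930 members where it was 4, the last value inside. The 1395 extract-rich bins with a count of 5, the first value outside, had 2.19, and those with 7 had 2.21.

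Bin by bin, a minority of the members were called above their flanks in H3K27me3 reads. These reads were not set against the extract reads of the same bins. Summed over members, the ratio to flanks was 2.06 for H3K27me3 and 3.29 for WCE replicate 2, which the rule used. Whether H3K27me3 exceeds the extract in any member was not tested. Each covered bin with flank reads was tested against its own flanks (exact conditional binomial test, two-sided, Benjamini-Hochberg over 3913764 bins, called at adjusted p under 0.05). H3K27me3 was above the flanks in 849 of 9583 members (8.86%), against 1.01% of all bins tested and 14.5% of the extract-rich bins with RNA Pol II or E2F4. It was below the flanks in 9 members (0.0939%), against 0.273% of all bins. At an unadjusted p under 0.05, 2326 members (24.3%) were above, against 4.54% of all bins, and 96 (1.00%) were below, against 1.93%. The 849 bins held a median of 24 H3K27me3 reads (quartiles 14 and 48, range 7 to 158) beside 3.93 per bin in their flanks, while the 8725 uncalled members held a median of 5 reads beside 3.16. Median extract reads were 17 and 16, in a class where 66.4% of bins held 15 to 17. Of the members with at least 20 extract reads, 12.7% were called above their flanks.

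No member was called in WCE replicate 1 by the same test, out of 9360 with flank reads in that library. The background there was 0.0214% of all bins above their flanks and 0% below them, and at an unadjusted p under 0.05 there were 38 members above (0.406%, against 1.32% of all bins) and 2 below (0.0214%, against 0.00013%). With 0.107 reads per covered bin in that library, no bin tested was called below its flanks.

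The spread between members was wide. Per member bin, the median H3K27me3 ratio to its own flanks was 1.58 (quartiles 1.01 and 2.40), and 75.4% of members had a ratio above 1. Over all covered bins the median was 0.804 and 41.5% were above 1. Per joined region the median was 1.59, lower than the summed ratio of 2.06, and the 5th and 95th percentiles were 0.395 and 4.97. No H3K27me3 read fell in 115 regions.

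**Figure D2:**
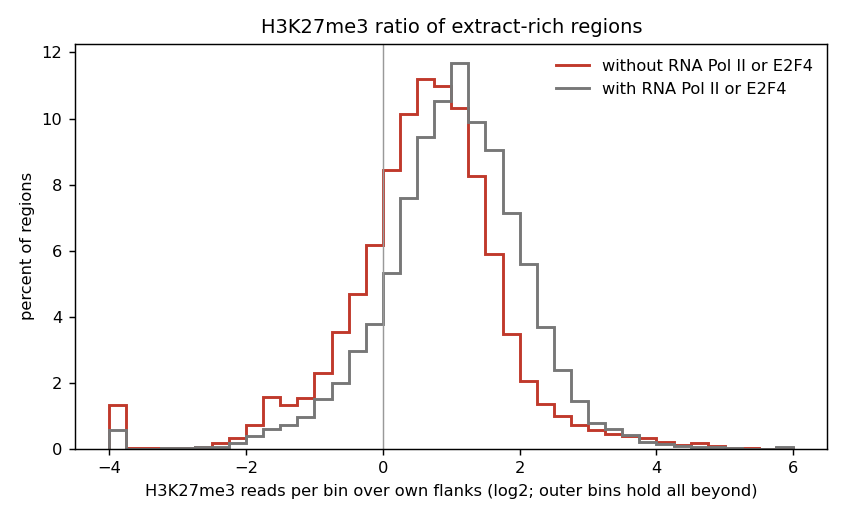
Share of regions (y axis, percent) by log2 of H3K27me3 reads per bin over their own flanks (x axis), for the extract-rich regions without RNA Pol II or E2F4 (red) and those with either (grey). The red outline lies to the left of the grey one, with medians of 1.59 and 2.09 as ratios, and the leftmost step holds regions with no H3K27me3 read.

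Extract-rich bins with RNA Pol II or E2F4 had the slightly larger summed H3K27me3 ratio, 2.23 (95% limits 2.22 to 2.24). The ratio of the members over that of the other class was 0.923 (95% limits 0.915 to 0.930). That difference depended on the setting: it was 1.00 (0.992 to 1.01) with flanks 20 to 50 kb away and 0.986 (0.969 to 1.00) with at least 20 extract reads in both classes. The other class also held more extract reads, 21.3 per bin against 17.3. Its WCE replicate 1 ratio was 0.530 (0.502 to 0.559), so that library was below its flanks in both classes.

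Around region centres, WCE replicate 2 formed a narrow peak, whose height and width the rule fixes in large part by choosing 500 bp bins on that library. H3K27me3, which took no part in the choice, formed a lower peak with a wider foot. In steps of 100 bp, scaled to the mean 5 to 20 kb away, WCE replicate 2 stood at 3.62 within 100 bp of the centre, 1.68 at 300 to 400 bp and 1.28 at 500 to 700 bp. H3K27me3 stood at 2.18, 1.68 and 1.42 over the same distances, and was still 1.21 at 1500 to 2000 bp where WCE replicate 2 was 1.15. WCE replicate 1 was at 0.439 in the centre, 0.907 at 300 to 400 bp and 1.03 at 500 to 700 bp, so its dip lay mostly within 400 bp of the centre. RNA Pol II had its lowest values beside the region, 0.435 at 500 to 700 bp against 0.842 in the centre, in the neighbouring bins that the rule also held under 5 reads.

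**Figure D3:**
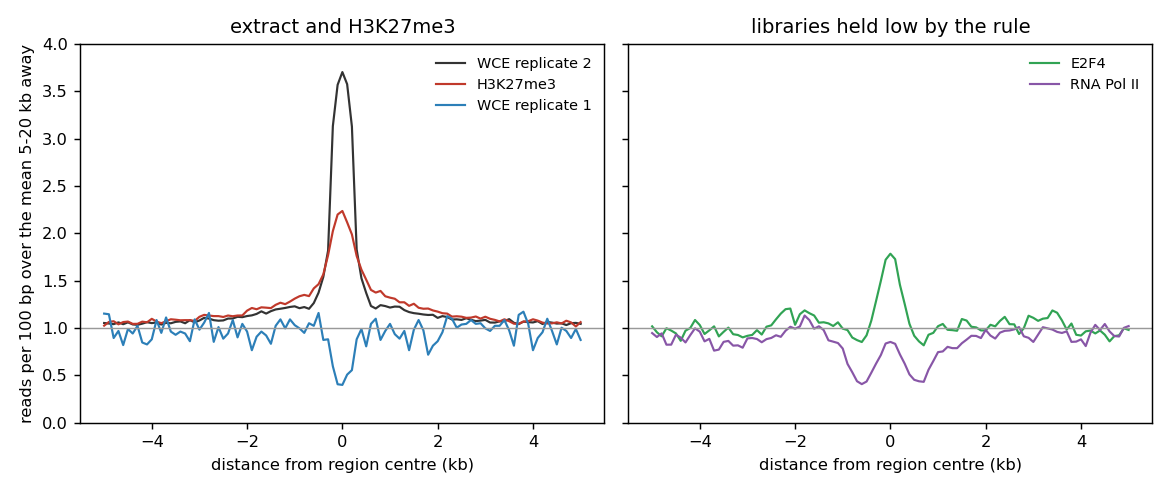
Reads per 100 bp over the mean 5 to 20 kb away (y axis) against the distance from the centre of the 8764 regions (x axis, kb), with WCE replicate 2, H3K27me3 and WCE replicate 1 on the left and E2F4 and RNA Pol II, both limited by the rule, on the right. WCE replicate 2, on which the bins were chosen, stands at 3.62 within 100 bp of the centre, H3K27me3 at 2.18 and WCE replicate 1 at 0.439.

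Reads of the 2 strands were even in the members (50.1% plus strand in WCE replicate 2, 49.7% in H3K27me3). The most frequent distance between plus and minus strand 5′ ends in WCE replicate 2 was 132 bp in the members and 155 bp in the flanks. For H3K27me3 it was 163 bp and 154 bp. In the extract-rich bins with RNA Pol II or E2F4 it was 148 bp for WCE replicate 2 and 37 bp for H3K27me3. Each value is a single best distance, and no difference between them was tested.

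Pile-up, the share of reads that repeat a position and strand already seen, was modestly higher in the members for H3K27me3 and lower for WCE replicate 1. Repeats were removed before the members were chosen, and flank reads were counted once here. For H3K27me3, repeats made up 13.6% of 91343 reads in the members and 11.4% of 1694531 in the flanks, an odds ratio of 1.22 (95% limits 1.196 to 1.244, Fisher's exact test, two-sided, p = 4.29e-85). The extract-rich bins with RNA Pol II or E2F4 had a like rise, 13.8% against 11.1% in their own flanks (odds ratio 1.28, limits 1.268 to 1.301). For WCE replicate 1, repeats made up 9.84% of 437 reads in the members against 19.2% in the flanks (odds ratio 0.459, limits 0.335 to 0.629, p = 1.2e-07 by the same exact test). The test treats repeats as independent, but repeats can stack at 1 position. For WCE replicate 1 the highest stack was 673 reads in the flanks and 12 in the members. Its repeat share was 11.8% in the flanks of the extract-rich bins with RNA Pol II or E2F4, so its lower pile-up in the members depends on the flanks used. With no test, the shares in members and flanks were 8.70% and 7.60% for WCE replicate 2, 2.63% and 10.7% for RNA Pol II, and 17.3% and 20.3% for E2F4.

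Stacks of many reads at 1 position were rare. No repeat of WCE replicate 2 occurred in 1871 regions (21.3%), the median region had 6.25% repeats, and 12 regions held a position with 5 or more reads, the highest 12. The 5 regions with the largest share of repeats had 39.4% to 78.7%. The extreme was chr9:3023501-3024000, with 59 repeats beside 16 distinct reads, 125 reads listed at 2 places over all libraries, and only 36 covered flank bins. The next, chr14:18071001-18071500, had 48.9% repeats, 57 such reads and 29 covered flank bins. Positions throughout are on mouse build mm8, and no gene annotation of that build was used here, so no gene is named.

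H3K27me3 reads listed at 2 places were about as dense in the members as around them. Per bin, with each flank bin counted once, their density was 1.01 times that of the flanks (95% limits 0.948 to 1.07), where that of H3K27me3 reads with 1 placement was 2.13 times. Their share of reads was accordingly lower, 1.37% in the members and 2.86% in the flanks (odds ratio 0.473, 95% limits 0.445 to 0.502, Fisher's exact test, two-sided, p = 3.59e-166), a test that restates the excess of the reads with 1 placement. Given without a test, the density ratio of reads listed at 2 places was 1.18 in WCE replicate 2, 1.15 in E2F4, 0.789 in RNA Pol II and 0.316 in WCE replicate 1. No such read of any library fell in 7417 regions (84.6%).

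The H3K27me3 ratio was largest where the surroundings held few extract reads. It was 6.01 (95% limits 5.82 to 6.22) in the 302 regions whose flanks had under 2.5 reads of WCE replicate 2 per bin, 2.20 (2.17 to 2.22) in the 3071 regions at 3.5 to 5, and 1.37 (1.33 to 1.40) in the 707 regions at 8 or more. The extract ratio itself, which the rule fixes in large part, ran from 8.16 through 4.03 to 1.88 over those classes. WCE replicate 1 was at 0.858 (0.568 to 1.25) in the first class and 0.582 (0.409 to 0.804) in the last. By the H3K27me3 density of the flanks, the ratio was 3.14 (3.05 to 3.23) below 2 reads per bin, 1.86 (1.84 to 1.88) at 3 to 5 and 2.04 (2.00 to 2.08) in the 369 regions at 10 or more, so members inside H3K27me3-rich stretches also stood above them. That flank density is also the divisor of the ratio, so sorting by it raises the ratio of the lowest class.

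By the rule the members lie outside RNA Pol II and E2F4 sites, taken here as bins with 10 or more reads. Their distances to such sites come from libraries used in the choice and are given without a test. They lay closer to them than did bins with fewer extract reads under the same limits. The nearest bin with 10 or more RNA Pol II reads was a median of 26.5 kb away, against 63 kb for bins with 3 to 7 extract reads under the same limits. For E2F4 the distances were 48 kb and 104 kb. Within 2 kb of an RNA Pol II site lay 6.69% of members and 2.32% of those other bins. The H3K27me3 ratio was 2.05 (1.99 to 2.10) in regions under 2 kb from such a site, 1.62 (1.57 to 1.66) at 2 to 5 kb, 1.84 (1.82 to 1.87) at 5 to 20 kb and 2.49 (2.44 to 2.53) beyond 100 kb. The members called above their flanks in H3K27me3 lay a median of 39.5 kb from an RNA Pol II site and the uncalled ones 25.5 kb.

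Individual regions show the range. Of the 5 longest, chr12:86081001-86084500 (3500 bp) held 152 reads of WCE replicate 2, 57 of H3K27me3, 9 of E2F4, 8 of RNA Pol II and 0 of WCE replicate 1. Its H3K27me3 ratio was 1.16 (95% limits 0.866 to 1.54), not apart from its flanks. The region chr11:116569001-116571500 (2500 bp) held 103 and 60 reads of those first 2 libraries, and its H3K27me3 ratio was 4.71 (3.36 to 6.54). The region chr12:111751001-111753500 had a ratio of 2.14 (1.4999 to 2.98), and chr1:90095001-90097000 was below its flanks at 0.579 (0.396 to 0.819). The fifth, chr4:3007001-3009500, had a ratio of 1.55 (1.08 to 2.21), but only 10 covered flank bins and 114 reads listed at 2 places.

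Among the 5 regions with the highest lower limit of the H3K27me3 ratio, chr3:93530001-93530500 held 117 H3K27me3 reads against 2.63 per bin in its flanks, a ratio of 44.5 (34.6 to 57.0), with 16 extract reads. The 2 bins of chr7:98068501-98069500 held 194 H3K27me3 reads against 2.78 per bin, a ratio of 34.9 (28.1 to 43.4), with 43 extract reads and no read listed at 2 places. In chr13:76522001-76522500, 45 H3K27me3 reads stood against 1.25 per bin (ratio 36, limits 24.1 to 53.5). The other 2 lie near the first mapped bases of chromosome 18, with 11 covered flank bins and 44 reads listed at 2 places each. The 3 regions given by position held more H3K27me3 than extract reads, and in the pair on chromosome 18 the counts were 43 beside 31 and 68 beside 69.

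At the other end, chr9:62963501-62964000 held 2 H3K27me3 reads where its flanks held 25.3 per bin, a ratio of 0.0792 (0.00958 to 0.287), with 15 extract reads. The bin chr2:31442501-31443000 held 5 against 29.9 per bin, a ratio of 0.167 (0.0542 to 0.391), and chr17:56453001-56453500 held 0 against 11.5 (upper limit 0.323). The bin chr15:88906001-88906500 held 1 read against 11.4 per bin. These 4 are low bins between flanks rich in H3K27me3, with extract reads between 2.38 and 2.93 times those of the flanks. The fifth, chr11:3029001-3029500, differs: its flanks held 59.2 extract reads per bin, more than the bin's own 19.

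Many members lay near one another along the chromosomes. Their gaps were not compared with those of the extract-rich regions with RNA Pol II or E2F4, so whether members lie closer together was not tested. The median gap between neighbouring regions was 23 kb, and 67.6% of gaps were at most 50 kb. Joined over gaps of up to 50 kb they formed 4515 groups, of which 57 had 10 or more regions and held 10.7% of all regions. The densest of these, chr1:90043001-90118000, had 18 regions in 75 kb, with 16.2 H3K27me3 reads per member bin against 12.5 per covered bin over the whole stretch. The next was chr12:86035501-86094500, with 12 regions in 59 kb and 9.82 against 6.59 H3K27me3 reads. The third was chr12:85055501-85126500, with 11 regions in 71 kb and 4.69 against 4.40. The group with most regions, named after its values were seen, had 47 in 487 kb at chr12:80824501-81311500. Of the member bins in these 4 groups, in the order given, 2 of 24, 4 of 22, 0 of 13 and 0 of 56 were called above their flanks in H3K27me3. Over all members 8.86% were called, and over all bins tested 1.01%. Flanks inside such groups can hold other member bins, and the group counts are too small to set apart from the share of all members without a test.

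Chromosome 12, singled out after its values were seen, held 1422 of the 9583 members. That is 14.8% of members on 4.90% of the covered bins, or 7.41 members per 1000 covered bins, while the other 18 autosomes ranged from 1.26 to 3.60 with a median of 2.30. It also had the highest extract density: WCE replicate 2 stood at 1.25 times the autosomal mean, H3K27me3 at 1.22 times and E2F4 at 1.26 times. WCE replicate 1 was at 1.00 and RNA Pol II at 1.02. Chromosome 11 had nearly the same extract density, 1.23 times the mean, with 3.60 members per 1000 bins, and its RNA Pol II density was 1.62 times the mean. Of bins with 15 to 100 extract reads, 43.8% on chromosome 12 were members and 23.9% on chromosome 11.

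**Figure D4:**
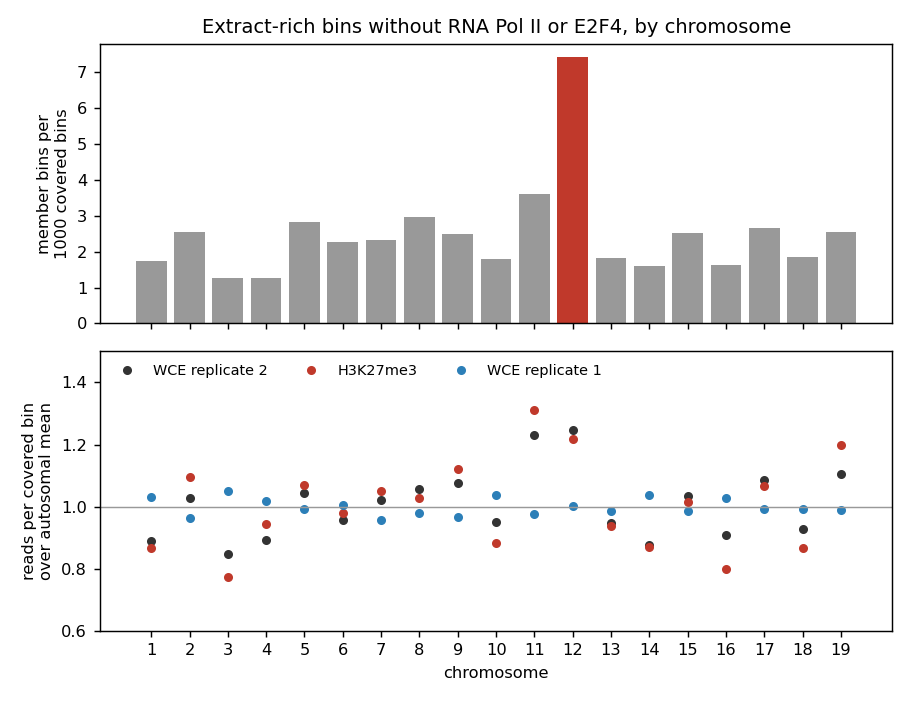
Top: member bins per 1000 covered bins (y axis) on each autosome (x axis), with chromosome 12 in red. Bottom: reads per covered bin over the autosomal mean for 3 libraries on an axis from 0.6 to 1.5; chromosome 12 is at 7.41 members per 1000 bins, with WCE replicate 2 at 1.25 and WCE replicate 1 at 1.00.

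The larger number on chromosome 12 was also seen within classes of extract density of the flanks, from 3 flank reads on. The classes and the members both come from WCE replicate 2, and flank density can differ within a class. The values are therefore given without a test. Bins whose flanks held 3 to 4 extract reads were members at 3.19 per 1000 on chromosome 12 and at 2.32 on the other autosomes. At 6 to 8 flank reads the values were 25.3 and 12.3, and at 8 or more 51.7 and 21.2. Below 3 flank reads the order was turned, 0.682 against 0.744 at 2 to 3. Along the chromosome the members were uneven: in windows of 5 Mb they ran from 0 to 24.9 per 1000 covered bins, the latter in 110000001 to 115000000, where WCE replicate 2 held 6.22 reads per bin and WCE replicate 1 held 0.0897. Of the 57 groups with 10 or more regions, 31 lie on chromosome 12. The H3K27me3 ratio there was 1.94 (1.91 to 1.98), within the range of 1.68 to 2.70 over the other autosomes, and without chromosome 12 the members' ratio was 2.08 (2.07 to 2.10).

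**Figure D5:**
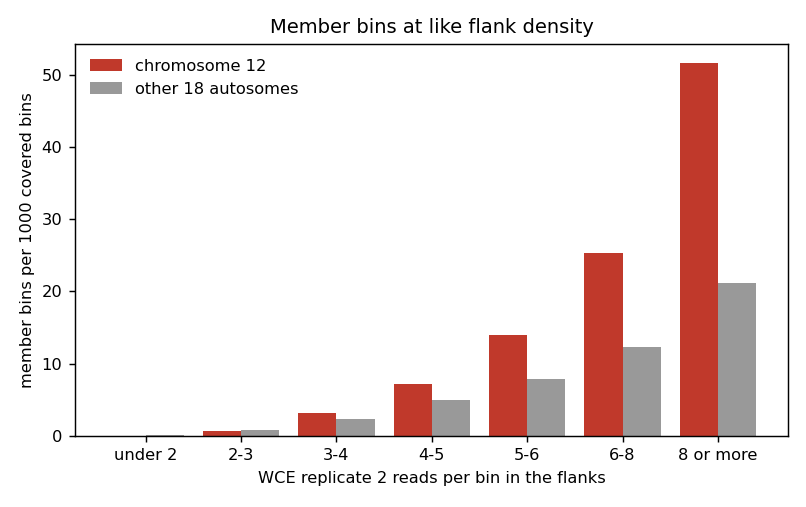
Member bins per 1000 covered bins (y axis) by the reads of WCE replicate 2 per bin in the flanks (x axis), for chromosome 12 (red) and the other 18 autosomes (grey). From 3 flank reads on, chromosome 12 is higher in every class, up to 51.7 against 21.2. The classes come from the library on which the members were chosen.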

How the data were processed

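The deposited lists give read positions with a sign for the strand, which the authors placed on mouse build mm8 with bowtie, per the file headers (settings -e 70, -k 2, -m 2, -n 2, with -l 26 or -l 36, taken here as the read length); the version of bowtie is not given in the sources used. First-section reads on chromosomes 1 to 19 were kept once per position and strand, their 5′ ends moved 60 bp downstream, and counted in 500 bp bins (Python 3.11.15, numpy 2.4.6, scipy 1.17.1). The second section was read as reads listed at 2 places. Positions were taken as the leftmost base on both strands, counted from 0.

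Ratios to flanks are reads per bin over those of the covered bins 5 to 20 kb away, so a flank bin shared by several regions counts for each; pile-up and reads listed at 2 places used each flank bin once. Ratio limits are Clopper-Pearson 95% limits. They take reads as independent, although shared flank bins count for several regions, and they leave out the spread between regions. The difference between classes was planned as Fisher's exact test, which takes no account of covered length, so a ratio of ratios with normal limits of its log is given and no p. The bin test was tested on simulated data. A count of 0 allows up to 0.000718% of the reads of WCE replicate 1 and 2.67e-05% of those of WCE replicate 2 (3 counts of the total). Reads amplified by PCR and lacking molecular identifiers can be copies of 1 molecule, so intervals cover counting error only.

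Named regions are the 5 longest, the 5 with the highest lower and the 5 with the lowest upper limit of the H3K27me3 ratio, the 5 with the largest share of repeats in WCE replicate 2, and the 3 groups with most regions per Mb among those of 10 or more; any other is marked as picked with its values known. The members, lists and tests were chosen with earlier results of these data known. No reference sequence of mm8 was used here, so no sequence is printed.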

Additional observations from a re-analysis of the deposited data

How the results depend on the processing

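The H3K27me3 ratio of the members to their flanks stayed above 1 in all 14 alternatives, from 2.01 with fewer than 3 RNA Pol II or E2F4 reads to 2.32 with at least 20 extract reads. The WCE replicate 1 ratio stayed below 1 in all 14, from 0.382 without regions that hold reads listed at 2 places to 0.572 with at least 20 extract reads. The share of members called above their flanks in H3K27me3 ran from 6.84% (adjusted p under 0.01) to 12.7% (at least 20 extract reads), and the H3K27me3 pile-up odds ratio from 1.21 to 1.26 over 3 alternatives. The difference between extract-rich regions without and with RNA Pol II or E2F4 did not hold everywhere: the ratio of 0.923 became 1.00 with flanks 20 to 50 kb away and 0.986 with at least 20 extract reads, with limits that include 1, and the cause was not tested. The other 11 alternatives kept it below 1, down to 0.879. Counting each flank bin once without member bins, leaving out chromosome 12, regions with reads listed at 2 places, or regions with fewer than 30 covered flank bins, and the range of 15 to 24 extract reads were chosen after seeing the data. No replicate could be left out, since each antibody has 1 library and WCE replicate 2 is the only extract library in the rule. No paired analysis was possible because no 2 groups share more than 1 replicate number. Depth limits WCE replicate 1 most, with 394 reads in the members.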

Other observations

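In the extract-rich bins with RNA Pol II or E2F4, 82.4% of the 7685 reads of WCE replicate 1 repeated a position, with 582 reads at 1 position, while in the members the highest was 12.

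By the same rule, chromosome X held 11 bins of 164893 covered (0.0667 per 1000), at a mean of 1.16 reads of WCE replicate 2 per covered bin. Those 11 bins held 13.5 H3K27me3 reads per bin, against 0.841 per covered bin on that chromosome.

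The ends of the autosomes held no large share of the members: 0.810% of regions lay in the first 1 Mb with reads, which holds 0.651% of covered bins, and 0.776% in the last 1 Mb, which holds 0.771%.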
